A study of Mus musculus with 6 samples.

Results

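The 9 genes described here are those by which osteoclasts, the multinucleated cells that dissolve bone, are recognised as they arise from macrophages. They are the receptor gene Tnfrsf11a, the transcription factor gene Nfatc1, the immune receptor gene Oscar, the integrin gene Itgb3, the secreted or lysosomal hydrolase genes Ctsk and Acp5, the proton pump gene Atp6v0d2 and the cell fusion genes Dcstamp and Ocstamp. They were chosen by symbol from the 55335 genes of the table, and each matched 1 Ensembl gene. All were read in mouse bone marrow-derived macrophages (BMDMs), primary cells grown from marrow in 20 ng/mL of macrophage colony-stimulating factor. In the PAC-CM-KD group (n = 3 libraries), medium conditioned by injured pancreatic acinar cells was added on day 5 together with 400 µM kinsenoside, a plant glycoside. In the PAC-CM group (n = 3 libraries) the same medium was given without kinsenoside. Both groups were grown in 10% serum and 1% antibiotics, and poly(A) RNA was sequenced. The labels name no strain, age or genotype. They do not say whether the replicates came from different animals or dishes, and the p-values may therefore rest on technical spread alone. None of the 6 libraries is labelled as grown without the conditioned medium, and the labels list no RANKL, the cytokine that induces osteoclasts.

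Osteoclasts and macrophages share a precursor. In the textbook pathway, RANKL binds RANK, the product of Tnfrsf11a, and the adaptor TRAF6 then activates NF-kB and AP-1. Together with calcium signals from receptors such as OSCAR that pair with ITAM adaptors, these switch on NFATc1, which in turn drives Ctsk, Acp5, Atp6v0d2, Dcstamp, Ocstamp, Oscar and Itgb3. Several of these genes are also read in macrophages that never fuse, above all those of lysosomal proteins.

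The libraries held between 41125059 and 47461702 counts. Macrophage markers were abundant in all 6 libraries, with a summed level of 22700, 23000 and 25500 CPM (counts scaled to the library total) in PAC-CM-KD and 20700, 21800 and 22800 CPM in PAC-CM. Of 11 identifiers in that list, 1 rose with kinsenoside and none fell: Mrc1, the mannose receptor, named after its value was seen, had 153, 126 and 150 CPM in PAC-CM-KD and 87.4, 99.0 and 94.5 CPM in PAC-CM (log2 fold change 0.66, edgeR adjusted p = 0.0316). Markers of acinar cells, the source of the medium, summed to between 5.06 and 7.14 CPM over all libraries, and 7 of these 10 genes stayed under 1 CPM. Markers of osteoblasts and stromal cells, the usual makers of RANKL, summed to between 5.23 and 5.43 CPM in PAC-CM-KD and between 6.57 and 7.80 CPM in PAC-CM, and 9 of 10 stayed under 1 CPM. Summed markers of dendritic cells (7.14 to 9.81 CPM), neutrophils (31.1 to 42.9), lymphocytes (6.53 to 15.4) and mast cells and basophils (0.635 to 2.58) were low in all 6 libraries. Among all 13901 genes tested, edgeR's quasi-likelihood test called 71 at a Benjamini-Hochberg adjusted p under 0.05, 29 higher (0.209%) and 42 lower (0.302%). With scaling by total counts alone the split was 25 higher and 63 lower, and without PAC-CM-KD replicates 2 and 3 and PAC-CM replicates 1, 2 and 3 in turn the calls numbered 20, 37, 13, 26 and 14.

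None of the 7 members that could be tested passed this threshold, where 0.511% of all tested genes did. At the looser level of an unadjusted p, 4 of the 7 had one under 0.05 by edgeR, where 14.9% of all tested genes had. The members were chosen with earlier results of these data known, so these shares are not an independent test. Ctsk and Atp6v0d2 had higher estimates with kinsenoside, at log2 fold changes of 0.44 and 0.35, while Nfatc1 and Tnfrsf11a had lower ones, at -0.40 and -0.22. DESeq2, run as an alternative, called Ctsk and Atp6v0d2 and no other member (adjusted p = 0.00202 and 0.0315), where it called 3.8% of the genes for which it gave an adjusted p. The estimates did not go one way. Of the 7, 3 lay above 0 and 4 below, where 48.9% and 51.1% of all tested genes did, and their median was -0.22 against -0.006 over all tested genes. In bulk RNA, fewer cells carrying a transcript and less of it per cell cannot be told apart. In plain CPM the 3 libraries of one group lay wholly above the 3 of the other for 5 members, 2 higher and 3 lower with kinsenoside. Such a separation was seen for 22.5% of all tested genes, 6.86% higher and 15.7% lower.

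The promoters of the members with an entry in RefSeq's table (build GRCm38.p6) can be set beside these values. The table matched 4 of the 9 members, Ctsk, Tnfrsf11a, Acp5 and Oscar, with 6 transcription starts in all, and the 250 bases before each start were searched on both strands for 5 short motifs. These were GGAAA (NFAT core), TGANTCA (AP-1), CATGTG and CACGTG (E-box forms read by MITF and TFE factors) and GAGGAA (PU.1 core, which can overlap the NFAT core). Among 32851 mouse promoters of the same length, 55.6%, 6.7%, 12.3%, 6.0% and 23.3% held at least 1 match to these motifs in that order. Ctsk and Tnfrsf11a are shown because their estimates lay on opposite sides of 0, Acp5 because its level per length ranked first, and Oscar because it had no counts. Each runs 5′ to 3′ toward its start on the gene's own strand, and capitals mark motif matches, given as their reverse complement where they lie on the other strand.
Ctsk promoter, chr3:95498960-95499209, plus strand: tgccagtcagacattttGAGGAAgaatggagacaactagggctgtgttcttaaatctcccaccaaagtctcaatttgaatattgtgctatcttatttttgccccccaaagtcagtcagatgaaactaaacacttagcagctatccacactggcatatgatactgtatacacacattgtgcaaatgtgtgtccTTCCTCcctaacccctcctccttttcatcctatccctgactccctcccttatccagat
Tnfrsf11a promoter, chr1:105780473-105780722, plus strand: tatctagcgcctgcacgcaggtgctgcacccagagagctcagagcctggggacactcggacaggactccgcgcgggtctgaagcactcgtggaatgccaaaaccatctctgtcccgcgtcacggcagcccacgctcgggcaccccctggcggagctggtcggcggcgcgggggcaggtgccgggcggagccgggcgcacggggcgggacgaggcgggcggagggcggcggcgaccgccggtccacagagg
Acp5 promoter of its innermost start, chr9:22130599-22130848, minus strand: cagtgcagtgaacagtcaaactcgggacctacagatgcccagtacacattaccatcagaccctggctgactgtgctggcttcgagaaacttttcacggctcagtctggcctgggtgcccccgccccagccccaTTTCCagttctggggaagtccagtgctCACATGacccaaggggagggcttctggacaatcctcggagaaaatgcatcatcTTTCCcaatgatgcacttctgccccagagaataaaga
Oscar promoter, chr7:3616158-3616407, minus strand: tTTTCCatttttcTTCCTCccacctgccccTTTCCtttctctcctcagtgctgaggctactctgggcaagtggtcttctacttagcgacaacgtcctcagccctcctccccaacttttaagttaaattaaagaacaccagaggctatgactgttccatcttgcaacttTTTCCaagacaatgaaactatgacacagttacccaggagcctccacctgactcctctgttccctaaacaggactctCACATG
The Ctsk window held 2 PU.1 cores, with first bases at -233 and -58 from the start, and no match to the other motifs. The Tnfrsf11a window held no match to any of the 5. The Acp5 window held NFAT cores at -117 and -37 and an E-box at -90, and the windows of its other starts each held 1 NFAT core, at -167 and -41. The Oscar window held 3 NFAT cores, at -249, -220 and -82, a PU.1 core at -237 and an E-box at -6. A match is a string of letters and not a bound site, and the absence of one covers this window alone.

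Across the 9 genes the level per exon length ran from 172 CPM per kilobase down to 0. Acp5 was first with 172 ± 28.4 CPM per kilobase of merged exons (SD over 6 libraries), followed by Atp6v0d2 with 124 ± 18.1. Their ranges over the libraries, 129 to 214 and 103 to 151 CPM per kilobase, overlapped, so their order does not hold beyond the spread. Ctsk came next at 56.4 ± 9.17 CPM per kilobase and Tnfrsf11a at 9.29 ± 0.991, each apart from its neighbours in every library. Itgb3 (4.33 ± 1.51) and Nfatc1 (2.81 ± 0.546 CPM per kilobase) overlapped each other. Dcstamp, at 0.361 ± 0.128 CPM per kilobase, lay below both, and Ocstamp, at 0.0376 ± 0.0265, lay below Dcstamp in every library. The hydrolase and pump genes thus stood far above the fusion genes: Acp5, Atp6v0d2 and Ctsk exceeded 97.9%, 97.3% and 94.0% of all tested genes in this measure, and Dcstamp 15.7%.

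**Figure D1:**
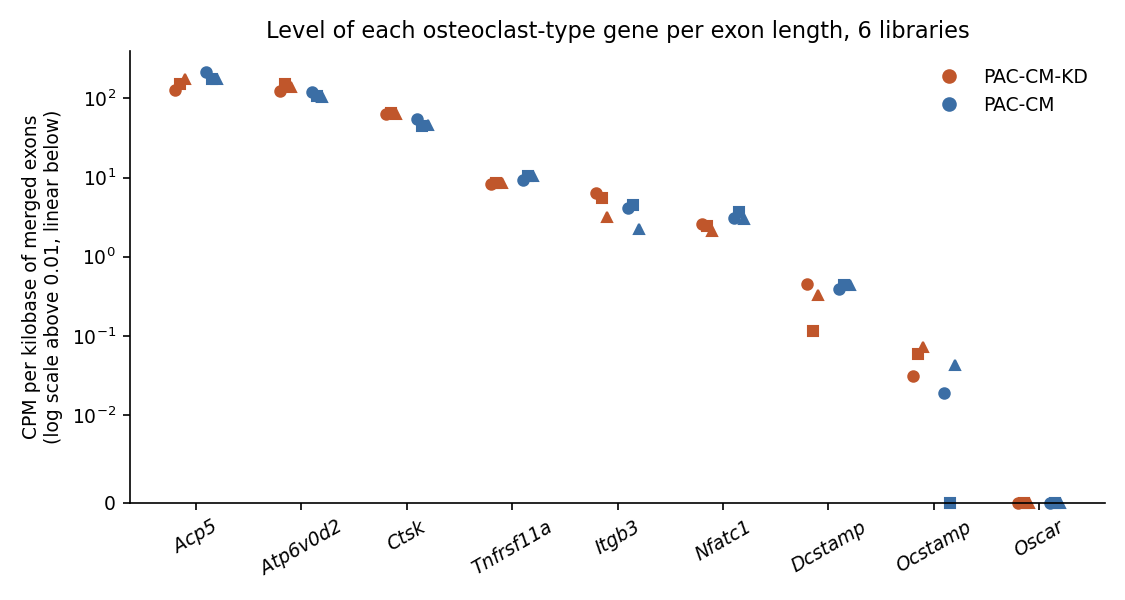
Level of each of the 9 genes in CPM per kilobase of merged exons (y axis, logarithmic above 0.01 and linear below), PAC-CM-KD libraries left and PAC-CM libraries right within each gene, 1 symbol shape per replicate number. Means run from 172 for Acp5 to 0.0376 for Ocstamp, and Oscar lies at 0 in all 6 libraries.

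The receptor gene and the transcription factor gene at the head of the pathway both had lower values in every library with kinsenoside, and neither passed the test. Tnfrsf11a (ENSMUSG00000026321, chromosome 1, 105780718 to 105847981, GRCm38, plus strand) encodes RANK, the receptor for RANKL on the precursor cell. It had 50, 50.9 and 51.0 CPM in PAC-CM-KD replicates 1 to 3, against 56.5, 63.0 and 62.4 CPM in PAC-CM replicates 1 to 3. The PAC-CM-KD libraries lay close together and all below the lowest PAC-CM library, which was replicate 1. This was 0.861-fold, or -0.22 on the log2 scale (SE 0.0686, adjusted p = 0.203 by edgeR). Without PAC-CM replicate 2 its unadjusted p no longer lay under 0.05.

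Nfatc1 (ENSMUSG00000033016, chromosome 18, 80606205 to 80713071, minus strand) encodes the calcium-driven factor regarded as the master switch of osteoclast formation. Its level was 19.3, 18.2 and 15.9 CPM in PAC-CM-KD and 22.8, 27.4 and 22.4 CPM in PAC-CM. The groups did not overlap, and PAC-CM replicate 2 stood above the other libraries. Its estimate was 0.758-fold, or -0.40 on the log2 scale (SE 0.111, adjusted p = 0.159 by edgeR and 0.0594 by DESeq2), and lay between -0.46 and -0.30 over 15 other ways of fitting, the smallest in size without PAC-CM replicate 2.

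The ligand side of the pathway was nearly silent. Tnfsf11, which encodes RANKL, had 0 counts in all 6 libraries, where 3 counts, the limit that a count of 0 allows, stand for between 0.0632 and 0.0729 CPM (counting error only). Tnfrsf11b, which encodes the decoy receptor osteoprotegerin, had 0 counts in each PAC-CM-KD library and 0, 5 and 7 counts in PAC-CM replicates 1 to 3. Both were too low to test.

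Oscar (ENSMUSG00000054594, chromosome 7, 3609813 to 3616157, minus strand) encodes a collagen-binding receptor that pairs with the ITAM adaptor FcRγ and adds the calcium signal to that of RANK. It had 0 counts in all 6 libraries, with the same limit as for Tnfsf11. Its partner adaptor gene Fcer1g was among the abundant genes, with 1260, 1160 and 1150 CPM in PAC-CM-KD and 1090, 1130 and 1100 CPM in PAC-CM (log2 fold change 0.15, SE 0.0606, edgeR adjusted p = 0.311). The receptor's transcript was thus undetected and the adaptor's abundant in both groups.

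Itgb3 (ENSMUSG00000020689, chromosome 11, 104608000 to 104670476, plus strand) encodes integrin β3, which with αv forms the vitronectin receptor that seals osteoclasts to bone, and with αIIb the fibrinogen receptor of platelets. Its level was 37.5, 33.0 and 18.8 CPM in PAC-CM-KD and 24.4, 26.3 and 13.2 CPM in PAC-CM. Replicate 3 was the low library in both groups, and the groups overlapped. The estimate was 0.53 on the log2 scale with a large SE of 0.366 (adjusted p = 0.578 by edgeR). It ranged from 0.28 without PAC-CM replicate 3 and 0.32 without PAC-CM-KD replicate 1 to 0.77 without PAC-CM-KD replicate 3, and no fit called it.

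The genes of the partners of integrin β3 were read beside it. Itgav, which encodes αv, had 73.7, 66.4 and 54.4 CPM in PAC-CM-KD and 83.8, 80.9 and 71.7 CPM in PAC-CM (log2 fold change -0.24, SE 0.113, edgeR adjusted p = 0.371). The ratio of Itgb3 to Itgav counts within a library, which does not depend on scaling, was 0.508, 0.497 and 0.346 in PAC-CM-KD and 0.291, 0.325 and 0.185 in PAC-CM. The groups did not overlap in this ratio, by a narrow margin of 0.346 against 0.325, and it was not tested. Itga2b, which encodes αIIb, had 4.77, 3.79 and 2.99 CPM in PAC-CM-KD and 5.18, 5.84 and 2.58 CPM in PAC-CM. The 9 markers of megakaryocytes and platelets summed to 146, 101 and 86.3 CPM in PAC-CM-KD and 81.9, 91.9 and 74.4 CPM in PAC-CM. None of them was at 0 in all libraries, and 4 stayed under 1 CPM. Vwf, the most abundant, had 58.2, 53.3 and 36.0 CPM in PAC-CM-KD and 51.8, 44.8 and 42.4 CPM in PAC-CM, which overlapped. Pf4 held 73.1, 38.3 and 41.1 CPM in PAC-CM-KD and 19.6, 33.5 and 26.1 CPM in PAC-CM. Of the 8 tested markers, 5 had estimates above 0 and 3 below, with a median log2 fold change of 0.02. The part of these markers in the Itgb3 values was not tested.

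The estimates of the resorption genes differed in sign, and none passed the test. Ctsk (ENSMUSG00000028111, chromosome 3, 95499256 to 95509362, plus strand) encodes cathepsin K, the collagen-degrading protease of osteoclasts. It had 95.5, 97.8 and 97.2 CPM in PAC-CM-KD, against 83.6, 67.1 and 70.4 CPM in PAC-CM. The PAC-CM-KD libraries lay close together, while PAC-CM replicate 1 stood above replicates 2 and 3. The difference was 1.36-fold, or 0.44 on the log2 scale (SE 0.0866, adjusted p = 0.0771 by edgeR), and it lay between 0.38 and 0.54 over the 15 other ways of fitting (adjusted p between 0.00202 and 0.256). Of all members it had the lowest p and ranked 146th among the 13901 tested genes.

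Other cathepsin genes were far more abundant and had smaller estimates. Ctsb, which encodes the general lysosomal protease cathepsin B, averaged 20500 ± 544 CPM in PAC-CM-KD and 18600 ± 512 CPM in PAC-CM (SD, n = 3 each; log2 fold change 0.18, SE 0.0603, edgeR adjusted p = 0.221). Ctss and Ctsl, the genes of cathepsins S and L, both had 0.14 (adjusted p = 0.374 and 0.559 by edgeR). Per length, Ctsk reached between 0.0187 and 0.0193 of the Ctsb level in PAC-CM-KD and between 0.0147 and 0.0180 in PAC-CM, and these ranges did not overlap. Against Ctss the count ratio was also apart, at 0.0125, 0.0123 and 0.0114 in PAC-CM-KD and 0.0109, 0.00919 and 0.00919 in PAC-CM. Against Ctsl the groups overlapped.

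Acp5 (ENSMUSG00000001348, chromosome 9, 22126727 to 22135711, minus strand) encodes tartrate-resistant acid phosphatase, the enzyme stained to count osteoclasts, which macrophages also carry. Its level was 261, 313 and 359 CPM in PAC-CM-KD and 435, 361 and 361 CPM in PAC-CM. PAC-CM-KD replicate 3 came within 2 CPM of the lowest PAC-CM libraries, and after TMM scaling, a correction for library composition, the groups overlapped. In edgeR it was 0.833-fold, or -0.26 on the log2 scale (SE 0.126, adjusted p = 0.376). This estimate was -0.15 without PAC-CM-KD replicate 1, -0.17 without PAC-CM replicate 1 and -0.38 without PAC-CM-KD replicate 3. Exons of the gene model 6530413G14Rik on the opposite strand overlap 137 exon bases of Acp5, or 6.7%, but that model had 0, 3 and 0 counts in PAC-CM-KD and 0 in each PAC-CM library. No other member shares exon bases with another gene model in GENCODE M21.

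Atp6v0d2 (ENSMUSG00000028238, chromosome 4, 19876841 to 19922605, minus strand) encodes the d2 subunit of the V-ATPase, the proton pump that acidifies lysosomes and the resorption pit, and is the form of subunit d that osteoclasts enrich. It had 333, 410 and 375 CPM in PAC-CM-KD, against 329, 294 and 280 CPM in PAC-CM. The groups lay apart by a narrow margin, since PAC-CM-KD replicate 1 exceeded PAC-CM replicate 1 by little. It was 1.28-fold higher, or 0.35 on the log2 scale (SE 0.0923), with an adjusted p of 0.138 by edgeR. Without PAC-CM-KD replicate 1 it was 0.43, and without PAC-CM-KD replicate 2 it was 0.28.

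Its widely expressed paralog Atp6v0d1 had 229, 217 and 203 CPM in PAC-CM-KD and 208, 214 and 207 CPM in PAC-CM (log2 fold change 0.09, SE 0.064). The ratio of Atp6v0d2 to Atp6v0d1 counts was 1.45, 1.89 and 1.85 in PAC-CM-KD and 1.58, 1.38 and 1.35 in PAC-CM, so the groups overlapped. Adjusted for exon length, the d2 form stood at between 0.893 and 1.25 times the d1 form over the 6 libraries, close to equal levels of the paralogs in these macrophages.

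The fusion genes had the fewest counts of the members detected. Dcstamp (ENSMUSG00000022303, chromosome 15, 39745930 to 39760938, plus strand) encodes the membrane protein DC-STAMP that osteoclast precursors need to fuse. It had 52, 13 and 36 counts in PAC-CM-KD and 45, 55 and 52 counts in PAC-CM, or 0.794 ± 0.450 CPM against 1.13 ± 0.0721 CPM (SD, n = 3 each). A single library, PAC-CM-KD replicate 2, was low, and the groups overlapped. Its log2 estimate was -0.46 (SE 0.425, adjusted p = 0.670 by edgeR), and -0.07 without that library, against -0.88 without PAC-CM-KD replicate 1. Ocstamp (ENSMUSG00000027670, chromosome 2, 165393760 to 165400405, minus strand) encodes the related protein OC-STAMP. It had 5, 9 and 11 counts in PAC-CM-KD and 3, 0 and 7 counts in PAC-CM, too few to pass the filter on low counts. Fitted without that filter it gave 1.41 on the log2 scale (SE 0.955, adjusted p = 0.631 by edgeR). At this depth no difference in Ocstamp was detected.

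**Figure D2:**
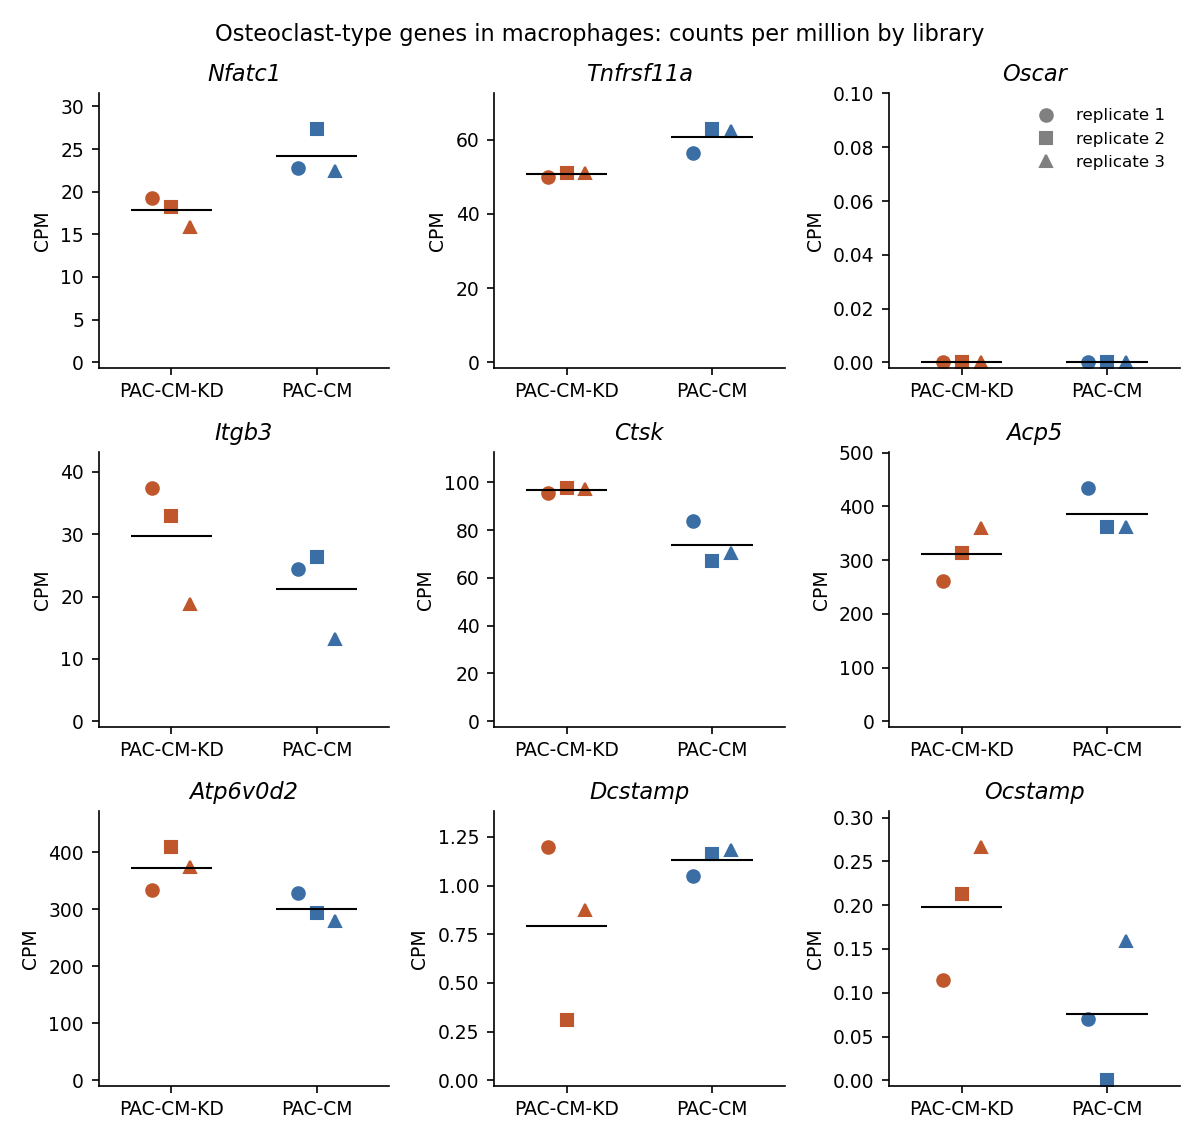
CPM (y axis, each panel with its own scale from 0) of the 9 genes in the PAC-CM-KD libraries, left, and the PAC-CM libraries, right. Symbols are replicates 1 to 3 and lines are group means. Ctsk and Atp6v0d2 lie higher and Nfatc1, Tnfrsf11a and Acp5 lie lower in every PAC-CM-KD library, while Itgb3, Dcstamp and Ocstamp overlap. For Acp5, PAC-CM-KD replicate 3 lies less than 2 CPM below the lowest PAC-CM library.

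Ratios between members within a library set their opposite signs side by side and do not depend on scaling. They were formed after the values were seen and carry no test. In CPM, Ctsk and Atp6v0d2 lay wholly higher with kinsenoside, and Acp5 and Nfatc1 wholly lower. The groups therefore had to lie apart in each ratio, and only its size adds to the values above. Ctsk counts relative to Acp5 counts were 0.365, 0.312 and 0.271 in PAC-CM-KD, against 0.192, 0.186 and 0.195 in PAC-CM. The PAC-CM libraries were nearly equal in it and the PAC-CM-KD libraries all higher, with a mean log2 difference of 0.72. The ratio of Atp6v0d2 to Acp5 counts was 1.27, 1.31 and 1.04 in PAC-CM-KD and 0.758, 0.813 and 0.775 in PAC-CM. The ratio of Ctsk to Nfatc1 counts was 4.96, 5.38 and 6.10 in PAC-CM-KD and 3.67, 2.44 and 3.14 in PAC-CM.

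**Figure D3:**
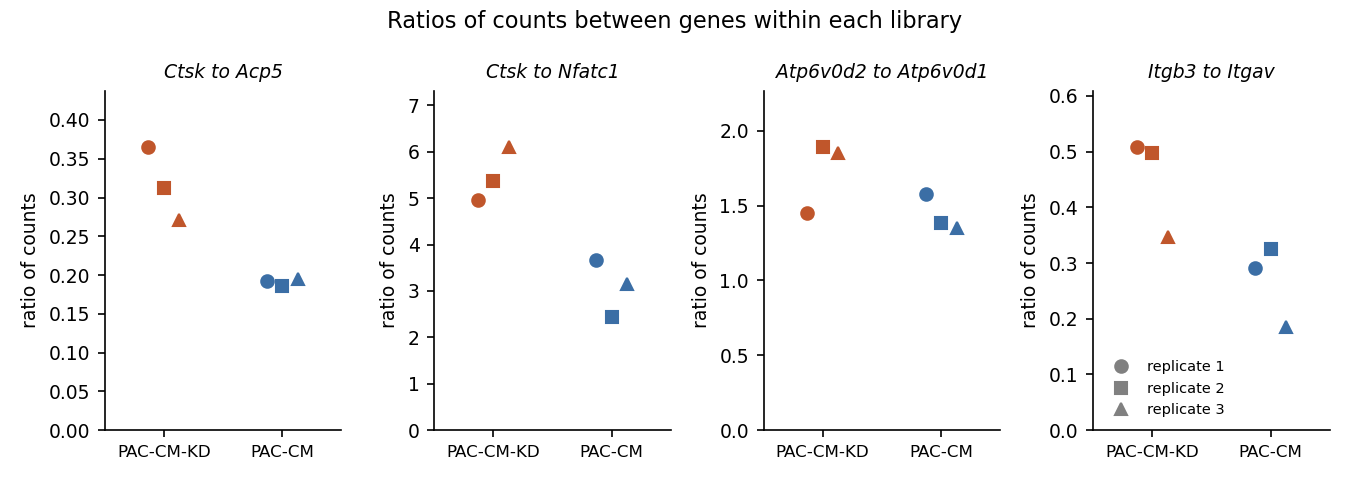
Ratio of counts between pairs of genes within each library (y axis, from 0), PAC-CM-KD left and PAC-CM right, with a symbol shape per replicate number. Ctsk to Acp5, Ctsk to Nfatc1 and Itgb3 to Itgav lie higher in every PAC-CM-KD library, and Atp6v0d2 to Atp6v0d1 overlaps, with PAC-CM-KD replicate 1 at 1.45. For the Ctsk ratios the separation follows from the CPM of their genes, which lay apart in opposite directions.

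Each of the 7 tested members kept the sign of its estimate in all 15 other fits run, which changed the test, the scaling, the filter, the replicate term or the libraries. Those fits share most of their libraries, so this repeats the same data. No member was called with RLE, upper quartile or total count scaling, where 0.475%, 0.525% and 0.633% of all tested genes were. None was called by limma-voom (0.281% of all), without a filter (0.448%), with a filter of more than 1 CPM in 3 libraries (0.587%), with the replicate number as a block (0.302%) or with non-robust estimates (0.259%). Nor was any called without PAC-CM-KD replicate 1, 2 or 3, where 0.690%, 0.141% and 0.260% of all tested genes were, or without PAC-CM replicate 1, 2 or 3, where 0.0918%, 0.184% and 0.0990% were. At an adjusted p under 0.1 edgeR called Ctsk alone (1.73% of all), and under 0.01 none (0.0791%). At an unadjusted p under 0.05 between 3 and 5 members passed with 1 library left out: Tnfrsf11a was lost without PAC-CM replicate 2, and Acp5 was added without PAC-CM-KD replicate 3. Between 10.3% and 16.4% of all tested genes passed that level in the same fits.

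**Figure D4:**
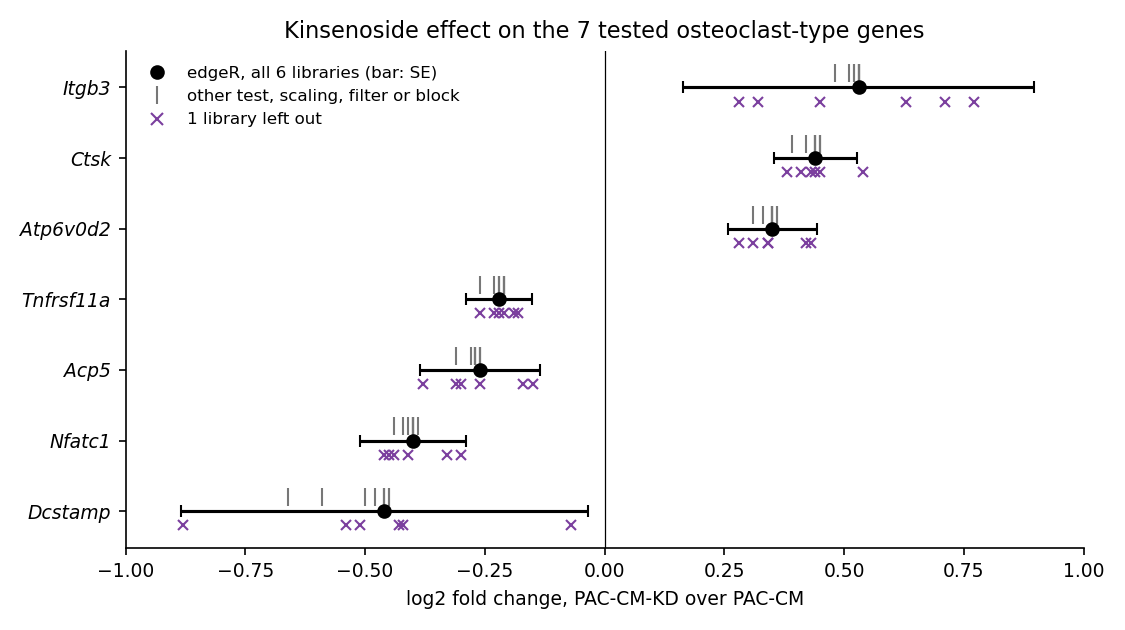
Log2 fold change of PAC-CM-KD over PAC-CM (x axis) for the 7 tested members. Black points with bars are edgeR estimates with their SE from all 6 libraries, grey ticks are other tests, scalings, filters and the replicate term, and crosses leave out 1 library. Itgb3, Ctsk and Atp6v0d2 lie above 0 and the other 4 below, and Itgb3 and Dcstamp have the widest bars, with SE of 0.366 and 0.425.

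The wider pathway was read through 6 gene lists, described by their counts and without a set test. Of 34 genes of RANK signalling, from the adaptor TRAF6 to NF-kB, AP-1 and calcineurin, 31 were tested and none was called. Their median log2 fold change was -0.01, and at an unadjusted p below 0.05 there was 1 gene higher and 1 lower, against 6.74% higher and 8.19% lower among all tested genes. Scaling moved this count: 1 was higher and 3 lower with upper quartile scaling (median -0.03), and 1 higher and 6 lower with total count scaling (median -0.05, 21 of 31 below 0). Total count scaling also moved the median over all tested genes, to -0.0498, so the list median equals that general shift. Under it 15.5% of all tested genes had an unadjusted p under 0.05 by edgeR, in either direction. Csf1r, the receptor for macrophage colony-stimulating factor, averaged 1230 ± 75.9 CPM in PAC-CM-KD and 1300 ± 41.1 CPM in PAC-CM (log2 fold change -0.04, edgeR adjusted p = 0.831). Map2k1, the kinase MEK1, had -0.12 (adjusted p = 0.371 by edgeR). None of 13 tested ITAM genes was called either, with a median of 0.03 that was -0.01 under total count scaling. The kinase gene Syk had -0.04 (SE 0.0785).

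Among the 6 lists, calls by edgeR fell in that of the brakes on the programme. Of 22 tested identifiers from 21 gene symbols of this list, 2 fell with kinsenoside, none rose and 20 did not pass, with a median log2 fold change of -0.05. Among all tested genes 0.302% were called lower and 0.209% higher. The list was chosen with earlier results of these data known, so its share is not an independent test. Bcl6, a transcriptional repressor that holds down Nfatc1 and its targets, had 30.5, 30.1 and 34.2 CPM in PAC-CM-KD, against 48.2, 49.6 and 44.5 CPM in PAC-CM. All PAC-CM-KD libraries lay below all PAC-CM libraries, and the estimate was -0.54 on the log2 scale (SE 0.0803, adjusted p = 0.0353 by edgeR). Nfkbia, which encodes the NF-kB inhibitor IκBα and is itself an NF-kB target, had 252, 219 and 220 CPM in PAC-CM-KD and 364, 353 and 336 CPM in PAC-CM (log2 fold change -0.56, SE 0.0734, adjusted p = 0.0263 by edgeR). The calls depended on the fit: Bcl6 passed in 7 of 15 other fits and Nfkbia in 10. Their estimates moved little over those 15 fits, between -0.61 and -0.50 for Bcl6 and between -0.63 and -0.52 for Nfkbia.

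Leaving out libraries moved this count. Neither gene was called without PAC-CM-KD replicate 2, PAC-CM replicate 1, PAC-CM replicate 2 or PAC-CM replicate 3. Without PAC-CM-KD replicate 1 Nfkbia alone passed, and without PAC-CM-KD replicate 3 Bcl6 alone passed. Without PAC-CM replicate 2 Tnfaip3, which encodes the NF-kB brake A20, was called as higher instead. Tnfaip3 had 190, 183 and 170 CPM in PAC-CM-KD and 112, 245 and 121 CPM in PAC-CM, so the library left out was its highest. With all 6 libraries its groups overlapped (log2 fold change 0.23, edgeR adjusted p = 0.81). The receptor symbol Lilrb4a names 2 identifiers, at 838 and 396 CPM over all libraries, whose reads can be split between near copies, and neither differed past the threshold (log2 fold changes 0.03 and -0.17).

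None of 24 tested fusion and adhesion genes passed, with a median log2 fold change of 0.01, which turned to -0.01 and -0.03 under upper quartile and total count scaling. Over all tested genes the median was -0.0498 under total count scaling. The sheddase gene Adam8 and the receptor gene Sirpa, its 2 most abundant members, had 0.16 and -0.13 (SE 0.117 and 0.0823). None of 19 genes of acid and matrix resorption passed, with a median of -0.07, and its second most abundant gene Ctsd, of cathepsin D, had 0.14 (SE 0.0574, edgeR adjusted p = 0.299). Of 17 tested V-ATPase subunits and accessory genes, without Atp6v0d2, none was called, but 15 estimates lay above 0, where 48.9% of all tested genes did, with a median of 0.10. At an unadjusted p under 0.05, 7 of the 17 were higher and none lower, where 6.74% and 8.19% of all tested genes were. In plain CPM 7 lay wholly higher with kinsenoside, where 6.86% of all tested genes did. As the lists were chosen with earlier results of these data known, these shares are not an independent test. Without PAC-CM replicate 3 the count at an unadjusted p under 0.05 was 4, and with scaling by total counts alone 13 estimates lay above 0 and 4 subunits had such a p. Of all tested genes, 13.4% had such a p in the former fit and 15.5% in the latter, in either direction.

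Atp6v1a, the catalytic subunit of the pump, averaged 860 ± 34.8 CPM in PAC-CM-KD and 751 ± 26.1 CPM in PAC-CM (SD, n = 3 each; log2 fold change 0.24, edgeR adjusted p = 0.129). Tcirg1, the a3 subunit through which the pump reaches the osteoclast membrane, averaged 881 ± 59.8 CPM in PAC-CM-KD and 943 ± 45.0 CPM in PAC-CM (log2 fold change -0.05, SE 0.0689). The estimate of Atp6v0d2, 0.35, lay above that of each of the 17 other genes of the list, whose highest was 0.32, and the difference was not tested.

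**Figure D5:**
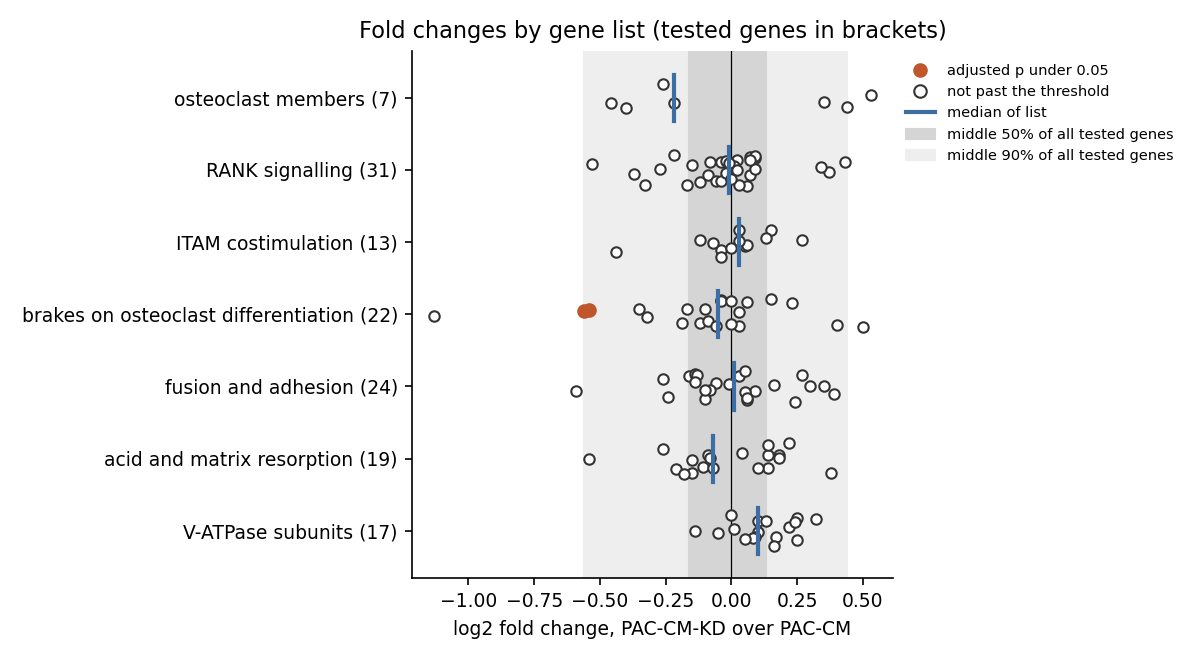
Log2 fold change of PAC-CM-KD over PAC-CM (x axis) of each tested gene in the 9-gene set and the 6 pathway lists, with the number tested in brackets. Filled points passed the edgeR threshold, blue bars are list medians, and shading spans the middle 50% and 90% of all tested genes. The filled points are Nfkbia and Bcl6, and 15 of 17 V-ATPase points lie above 0.

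The genes most like the 2 most abundant members were sought by the root mean square difference of log2 CPM, taken from each gene's own mean, over the 6 libraries. Arfrp1, Ckap4 and Fbxl4 were nearest to Acp5, at 0.0378, 0.0566 and 0.0617, where Acp5 itself varied by 0.210 around its mean. Azin1, Tm4sf19 and Zfp704 were nearest to Atp6v0d2, at 0.0350, 0.0441 and 0.0497, where Atp6v0d2 varied by 0.207. Because likeness was measured over the same libraries, these genes share the sign of the member's fold change by their selection.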

How the data were processed

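Gene expression was read by RNA-seq in 6 libraries of mouse macrophages. The authors deposited a table of whole-number counts per Ensembl gene, and these counts were used as deposited. Tools in the submitters' processing notes were STAR, StringTie (1.3.1c), FastQC (0.11.2) and bcl2fastq (2.20), with GRCm38 as the build and the authors' DESeq2 at 1.16.1. The counting tool and its use of strand were not given in the sources used here. Counts of 3 (6202 cells) outnumber counts of 2 (5128), so the values may be rounded estimates. Libraries held 41125059 to 47461702 counts.

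Differences were tested in edgeR 4.0.16 under R 4.3.3: filterByExpr, TMM scaling, robust quasi-likelihood fits on the group with 4 residual degrees of freedom, a two-sided test and Benjamini-Hochberg adjustment over 13901 genes with a threshold of 0.05. Each SE was derived from the estimate and the square root of its F statistic. CPM is relative to the library total, and levels between genes are per kilobase of merged exons in GENCODE M21 (GRCm38). All pairs of libraries differed by more than sampling noise (lowest chi-square per degree of freedom 25.9). Alternatives were DESeq2 1.42.0, limma-voom (limma 3.58.1), RLE, upper quartile and total count scaling, other filters, non-robust estimates, a block for the replicate number, thresholds of 0.01 and 0.1, and leaving out each library.

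The members and lists were chosen with earlier results of these data known. Named genes are the members, the called (up to 4) and 2 most abundant genes of each list, set partners and paralogs, and the 3 genes nearest to each of the 2 most abundant members. Tnfaip3, Itga2b, Pf4, Vwf and Fcer1g as the partner of Oscar were singled out after their values were seen, as were the ratios other than those to named partners.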

Additional observations from a re-analysis of the deposited data

How the results depend on the processing

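All 7 tested members kept the sign of their estimate in each of 15 other fits. None was called in any of them but DESeq2, which called 2 (Ctsk and Atp6v0d2), and at an adjusted p under 0.1 edgeR called 1 (Ctsk). The number of all genes called was 71 by edgeR, 441 by DESeq2, 39 by limma-voom, 36 with non-robust estimates, 11 at a threshold of 0.01, 241 at 0.1, and between 13 (without PAC-CM replicate 1) and 98 (without PAC-CM-KD replicate 1) with 1 library left out. It was 42 with the replicate number as a block. Of the lists, DESeq2 called 2 ITAM genes (Tyrobp and Blnk), 2 fusion genes (Dock5 and Cd9) and 4 V-ATPase genes where edgeR called none, of 13, 24 and 17 genes tested by edgeR and against 3.8% of all genes in DESeq2. Dock5 was the 1 fusion gene called with total count scaling, without a filter and at a threshold of 0.1. The 2 brake genes became 1 with non-robust estimates, limma-voom or the replicate block, 0 at a threshold of 0.01, and between 0 and 1 with 1 library left out. The counts of members and of the other lists were 0 whichever library was left out. The causes of these changes were not tested.

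The replicate numbers did not pair the libraries: same-numbered libraries deviated from their group means with correlations of 0.009, -0.101 and 0.135, and replicate 1 of PAC-CM-KD correlated better with replicate 2 of PAC-CM (0.164) than with its own number. Under the block the SE of Itgb3 was 0.0869 and its adjusted p 0.081, and no member was called. Depth limits Ocstamp and Oscar, at 11 counts or fewer in each library.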
